A study of Mus musculus with 15 samples.

Results

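The genes described here are 36 collagens and structural matrix genes of the mouse uterus: collagen chains, matrix glycoproteins and elastic fibre proteins, small proteoglycans, matricellular proteins, and enzymes and a chaperone that process collagen. They form a list of gene names with no threshold on their values, but it was chosen with earlier results of these data known. All 36 had a probe on the array, among 27647 genes named there and 20308 that could be tested. Total RNA came from uterine tissue of CD-1 mice whose ovaries had been removed, so that the animals made little oestrogen of their own. The mice were given an injection of 100 µl saline, either alone (vehicle) or with 250 ng of E2 (estradiol) or 250 ng of E3 (estriol), an oestrogen that carries an additional hydroxyl group on its D ring. The tissue was collected after 2 h or 24 h. That gave 5 groups of 3 one-colour Agilent arrays: vehicle, E2 at 2 h, E3 at 2 h, E2 at 24 h and E3 at 24 h. The labels give no time for the vehicle uteri, so these 3 arrays served as the control of both times. The labels call the 3 samples of a group replicates and do not say whether each came from a separate mouse, so the p-values rest on how far these samples differ from each other, a spread that may be technical.

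Collagens are built from 3 chains that wind into a triple helix. Before they can wind, prolyl hydroxylases (P4ha1, P4ha2) and lysyl hydroxylases (Plod2) modify the chains in the endoplasmic reticulum, where the chaperone Hsp47 (Serpinh1) binds the folded helix. After secretion, fibrillar collagens (types I, III and V) assemble into fibrils, lysyl oxidases (Lox, Loxl1, Loxl2) cross-link them, and small leucine-rich proteoglycans (Dcn, Lum, Bgn) bind them and set their spacing. Type IV collagen forms the network of basement membranes, and type VI forms beaded microfibrils around cells. Matricellular proteins such as the thrombospondins, osteopontin (Spp1) and Sparc act on cells more than they bear load. The oestrogen-stimulated uterus is known for rapid fluid uptake in the first hours and for growth and remodelling of its stroma by the following day.

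Levels are given as the log2 of the processed signal minus the 75th percentile of the same array, so that 0 is the 75th percentile and a difference of 1 is 2-fold. That percentile lay between 1053 and 1854 signal units, and 63.1% to 80% of probes were well above background on an array. Each gene is read through its brightest probe, and levels of different genes are not compared, since probes differ in efficiency. All 36 probes were well above background on all 15 arrays, and none was saturated. Differences were tested with limma over all 20308 genes, and a gene is said to have risen or fallen where its adjusted p (Benjamini-Hochberg) was under 0.05, and every adjusted p below comes from limma. Errors of differences are standard errors (SE). Within a group, arrays correlated at 0.986 or higher in 4 groups, and 0.962 to 0.974 among the E3 arrays at 24 h, where the median SD over the 36 genes was 0.262, against 0.174 in the vehicle group. The 3 vehicle arrays shared a slide with no other array, so slide and treatment cannot be told apart in the comparisons with vehicle.

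Markers of the cell types that a uterus holds were read on the same arrays. The summed level of 7 fibroblast and stroma markers lay at 6.65 to 6.72 with vehicle, 6.11 to 6.16 with E2 and 6.11 to 6.25 with E3 at 2 h, and 6.62 to 6.79 with E2 and 6.58 to 6.94 with E3 at 24 h. At 2 h 4 of these 7 markers fell with E2 and 5 with E3, among them Nr2f2 and Hoxa10. The summed level of 7 smooth muscle markers lay at 8.55 to 9.12 with vehicle and at 9.12 to 9.83 and 9.48 to 9.77 at 24 h with E2 and E3, with 4 and 6 of the 7 called higher. Of 5 macrophage markers 4 rose with E3 at 24 h and 1 with E2, and their summed level was 3.22 to 3.34 with vehicle, 3.59 to 3.93 with E2 and 3.89 to 5.07 with E3. Markers of adipocytes varied widely within groups, from 2.33 to 6.51 among the vehicle arrays, and none of 5 was called. Of 4 erythrocyte markers 3 were called higher with E2 at 2 h and 2 with E3, and 3 with each at 24 h. Their summed level was 5 to 5.62 with vehicle, 6.36 to 6.68 and 5.94 to 6.24 at 2 h with E2 and E3, and 6.08 to 6.87 and 5.78 to 6.53 at 24 h. Of 7 epithelial markers 2 fell with E2 and 1 with E3 at 2 h, and 2 and 1 rose at 24 h. Their summed level was 7 to 7.43 with vehicle, 6.48 to 6.71 and 6.39 to 7.12 at 2 h, and 7.54 to 8 and 7.54 to 8.08 at 24 h. Of 6 endothelial markers 3 fell with E2 at 24 h, and 1 with E3 at each time, with a summed level of 3.96 to 4.01 with vehicle and 3.61 to 3.94 and 3.7 to 4.16 at 24 h. None of 4 eosinophil and neutrophil markers was called. The part of these markers in the results below was not tested. In whole tissue, fewer cells of a type and less RNA per cell cannot be told apart.

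At 2 h, 12 of the 36 genes changed with E2, 7 up and 5 down, where 38.7% of all genes tested were called, 15.5% higher and 23.1% lower. With E3, 16 changed, 6 up and 10 down, against 40.2% of all genes, 16.6% higher and 23.6% lower. The share of the 36 was 33.3% with E2 and 44.4% with E3, near the background of each comparison. The arrays of vehicle and treatment did not overlap in 18 genes with E2 and in 21 with E3, against 55.5% and 55.6% of all genes. The median difference of the 36 genes from vehicle was -0.11 with E2 and -0.04 with E3, beside -0.14 and -0.16 over all genes tested. With each array scaled to its median instead, the split was 10 up and 1 down with E2 and 10 up and 3 down with E3, and the median of all genes moved to 0.04 and 0.08. P4ha2, Col5a1, Col6a2, Col6a3, Eln and Fbln2 rose at 2 h after either oestrogen, and Loxl2 after E2. Col5a2, Lum, Bgn, Lox and Spp1 fell after either, and Col1a1, Col1a2, Col3a1, Col12a1 and Postn after E3.

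**Figure D1:**
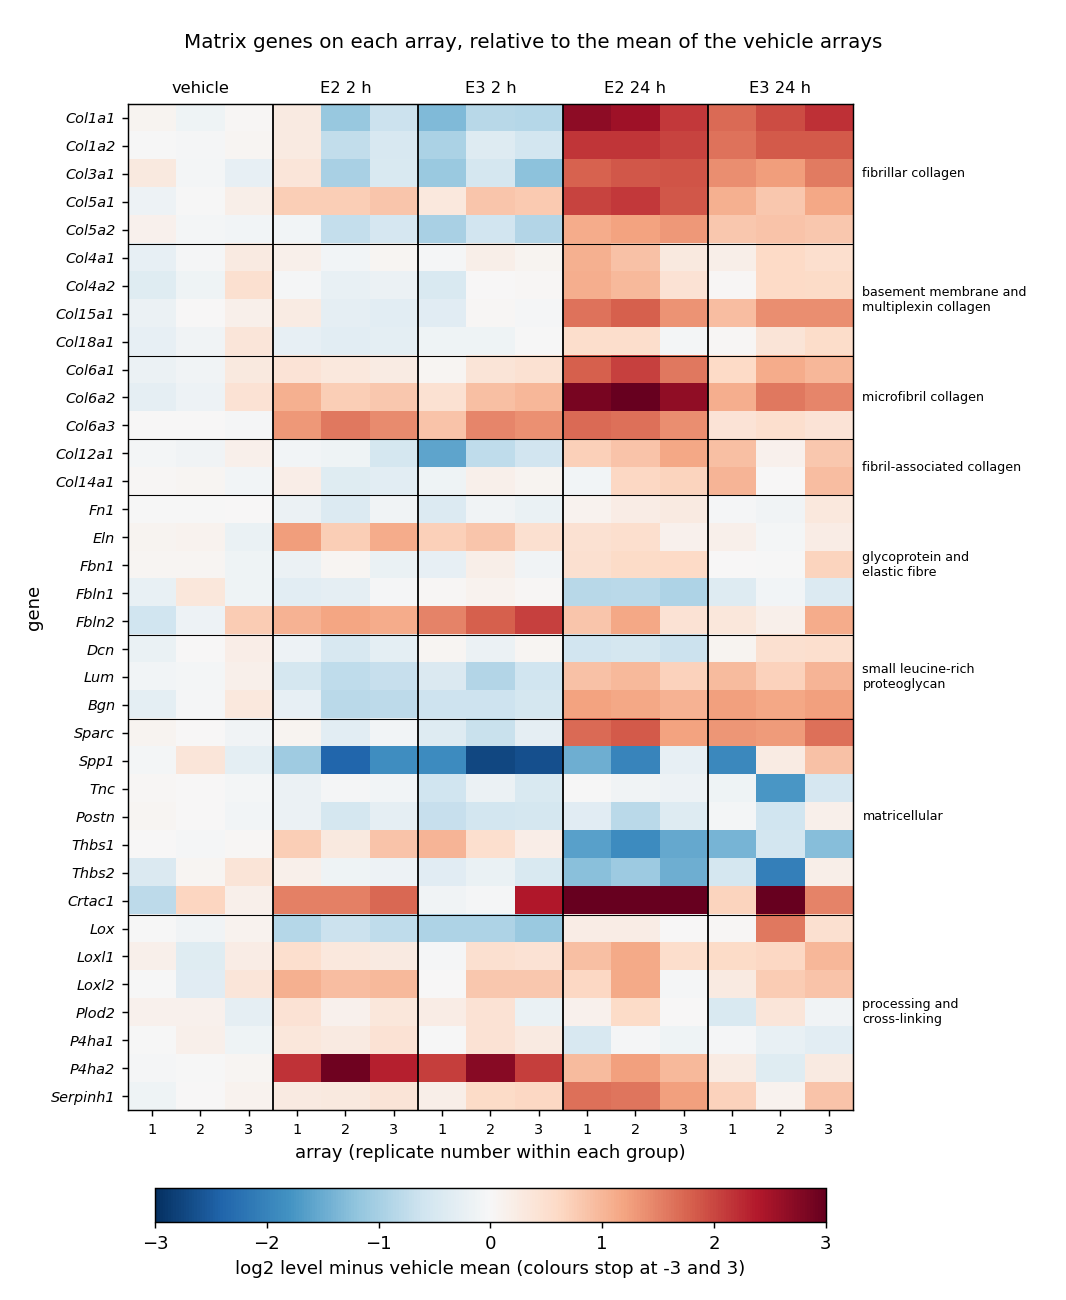
Heat map of the 36 matrix genes (rows, grouped by role) on the 15 arrays (columns, by group and replicate). Colour is the log2 level minus the mean of the 3 vehicle arrays, red above and blue below, with colours ending at -3 and 3. P4ha2 and Col6a3 are red on all 6 arrays of 2 h, and the fibrillar collagens turn from mostly blue or pale at 2 h, Col5a1 excepted, to red at 24 h.

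P4ha2, the second catalytic subunit of prolyl 4-hydroxylase, had the largest rise of the 36 genes at 2 h. Its brightest probe lies at chr11:54088287-54088346 on mm7, the genome build of the array files. Its level was 0.54, 0.57 and 0.65 on the vehicle arrays, 2.76, 3.51 and 2.93 at 2 h after E2 and 2.67, 3.32 and 2.67 at 2 h after E3. At 24 h it stood at 1.53, 1.81 and 1.55 after E2, and 0.83, 0.23 and 0.86 after E3. All 6 arrays of 2 h lay above all vehicle arrays, and by 24 h the E3 arrays overlapped with vehicle while the E2 arrays did not. The rise at 2 h was 2.48 ± 0.23 log2 units (SE) after E2, or 5.58-fold, and 2.30 ± 0.23 after E3, or 4.93-fold (adjusted p = 7.9e-06 and 1.3e-05). At 24 h it was 1.05 ± 0.23 after E2 (adjusted p = 0.0035) and 0.06 ± 0.23 after E3 (0.89). A second, dimmer P4ha2 probe, well above background on 8 of 15 arrays and placed 4.2 kb towards the 5′ end, rose by 1.93 after E2 at 2 h and gave -1.43 after E2 at 24 h (adjusted p = 0.0063), the opposite sign of the brighter probe. With E3 at 2 h it gave 0.58 (adjusted p = 0.21).

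Other members of the processing group moved less at 2 h. Loxl2, a lysyl oxidase, rose by 0.99 ± 0.30 after E2 (adjusted p = 0.020) and differed by 0.55 ± 0.30 after E3 (0.17). The other Loxl2 probe, 3.1 kb towards the 5′ end, rose by 0.79 after E2 (0.025) and by 0.75 after E3 (0.031). P4ha1, the first catalytic subunit, gave 0.35 after E2 (adjusted p = 0.082) and 0.23 after E3 (0.25), and neither Plod2 (0.31 and 0.15), Loxl1 (0.36 and 0.29) nor Serpinh1 (0.32 and 0.46) passed the test. Lox, the enzyme that begins collagen and elastin cross-linking, went the other way. Its level was -0.85, -0.94 and -0.72 with vehicle, -1.7, -1.49 and -1.59 at 2 h after E2 and -1.77, -1.77 and -1.95 at 2 h after E3, and -0.62, -0.62 and -0.82 and -0.79, 0.74 and -0.35 at 24 h after E2 and E3. Both groups of 2 h lay below every vehicle array. The fall was 0.76 ± 0.28 after E2, just past the threshold (adjusted p = 0.049), and 1.00 ± 0.28 after E3 (0.013). With each array scaled to its median the changes were -0.58 (0.17) and -0.76 (0.070), quantile normalization gave -0.67 after E2 (0.077), and leaving out any 1 of 13 arrays also ended the E2 call (adjusted p between 0.054 and 0.12).

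The hypoxia response core ACGTG stands in the promoter window of 6 of the 23 members that have one, P4ha1 and P4ha2 among them. The windows come from RefSeq on build GRCm38.p6 and hold 250 bases before and 50 after an annotated start. Counted by window, since some members have several, 7 of 30 member windows hold ACGTG on either strand. Among all 32851 such windows 19.6% hold it. The 250 bases before the P4ha2 start (chr11:54100674-54100923, plus strand) are printed because this gene led the rises at 2 h. Capitals mark ACGTG, 78 bases before the start, and the GC box GGGCGG on either strand, 126 and 18 bases before it.
P4ha2: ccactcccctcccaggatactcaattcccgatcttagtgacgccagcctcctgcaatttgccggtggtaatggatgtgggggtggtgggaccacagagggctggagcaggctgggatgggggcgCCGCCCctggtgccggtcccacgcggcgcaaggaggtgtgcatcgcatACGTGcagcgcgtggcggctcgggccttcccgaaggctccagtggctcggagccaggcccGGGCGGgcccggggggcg
The GC box is held by 35.7% of all windows. These matches describe letters and say nothing of binding.

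Type VI collagen, which forms microfibrils around cells, is made from the products of Col6a1, Col6a2 and Col6a3. Col6a3 stood at 3.28, 3.28 and 3.21 on the vehicle arrays, 4.56, 4.83 and 4.68 at 2 h after E2 and 4.12, 4.71 and 4.63 at 2 h after E3. Its values at 24 h were 4.95, 4.92 and 4.65 after E2, and 3.66, 3.75 and 3.66 after E3. The E2 arrays were as high at 24 h as at 2 h, while the E3 arrays had come down towards vehicle. The rise at 2 h was 1.43 ± 0.15 after E2, or 2.70-fold (adjusted p = 1.6e-05), and 1.23 ± 0.15 after E3, or 2.34-fold (4.9e-05). From 2 h to 24 h Col6a3 changed by 0.15 ± 0.15 after E2 (adjusted p = 0.41) and fell by 0.79 ± 0.15 after E3 (9.5e-04). Col6a2 was at 0.65, 0.76 and 1.36 with vehicle, 1.98, 1.67 and 1.73 with E2 and 1.39, 1.82 and 1.93 with E3 at 2 h. All arrays of 2 h were above all vehicle arrays, with rises of 0.87 ± 0.21 (adjusted p = 0.0063) and 0.79 ± 0.21 (0.011). Col6a1 gave 0.32 ± 0.18 and 0.30 ± 0.18 at 2 h, with arrays that overlapped and no call (adjusted p = 0.17 and 0.20).

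Among the elastic fibre proteins at 2 h, elastin and fibulin 2 rose. Eln, which encodes elastin, was at -1.67, -1.65 and -1.97 with vehicle, -0.5, -1.02 and -0.66 with E2 and -1.05, -0.94 and -1.28 with E3 at 2 h, and at -1.3, -1.27 and -1.64 and -1.6, -1.82 and -1.54 at 24 h. Every array of 2 h was above vehicle, and by 24 h only the E2 arrays still were. The rise at 2 h was 1.04 ± 0.16 after E2 (adjusted p = 3.5e-04) and 0.68 ± 0.16 after E3 (0.0059), and neither difference of 24 h was called (0.36 and 0.11). Fbln2, fibulin 2, which binds fibronectin and elastic fibre components, read 2.34, 2.79 and 3.7 on the vehicle arrays, whose spread was wide. It read 3.98, 4.13 and 4.06 with E2 and 4.42, 4.73 and 5 with E3 at 2 h, then 3.77, 4.11 and 3.38 and 3.29, 3.09 and 4.05 at 24 h. Its rise at 2 h was 1.11 ± 0.33 after E2 (adjusted p = 0.018) and 1.77 ± 0.33 after E3 (0.0011). The E2 call was lost without E2 2 h replicate 2, vehicle replicate 1 or vehicle replicate 2, with adjusted p between 0.056 and 0.082. Fbn1 (fibrillin 1), Fbln1 (fibulin 1) and Fn1 (fibronectin) differed by -0.24 to 0.06 from vehicle at 2 h and were not called.

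Type I collagen, the most abundant fibrillar collagen, joins the products of Col1a1 and Col1a2, and type III is made from Col3a1. Col1a1 was at 4.51, 4.28 and 4.46 with vehicle, at 4.68, 3.28 and 3.77 with E2 and at 3.09, 3.59 and 3.57 with E3 at 2 h. The 3 E3 arrays were below vehicle, while E2 replicate 1 was above it and the other two below. The difference was -0.51 ± 0.29 after E2 (adjusted p = 0.20) and -1 ± 0.29 after E3 (0.016). Col1a2 read 5.65, 5.64 and 5.72 with vehicle, 5.95, 4.94 and 5.18 with E2 and 4.71, 5.29 and 5.12 with E3 at 2 h, differences of -0.31 ± 0.22 (0.29) and -0.63 ± 0.22 (0.037). Col3a1 read 5.06, 4.7 and 4.51, 5.11, 3.78 and 4.31 and 3.65, 4.22 and 3.53 in the same order, differences of -0.36 ± 0.28 (0.35) and -0.96 ± 0.28 (0.018). So these 3 genes fell after E3 and were not called after E2, and the difference between E2 and E3 itself was not called in any of them at 2 h (adjusted p = 1). On the median scale the 3 falls after E3 also missed the threshold, at -0.76 (adjusted p = 0.052), -0.39 (0.18) and -0.72 (0.051). All 3 calls were also lost without E3 2 h replicate 1 or without vehicle replicate 1. Col1a1 then gave -0.95 to -0.84 (adjusted p 0.051 to 0.063). Col1a2, whose call was lost without E3 2 h replicate 3 or any other vehicle array as well, gave -0.67 to -0.46 (0.066 to 0.14). Col3a1, which lost its call without E3 2 h replicate 3 too, gave -0.88 to -0.80 (0.056 to 0.073).

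The type V collagen genes Col5a1 and Col5a2, whose protein limits the width of type I fibrils, went opposite ways at 2 h. Col5a1 was at 1.86, 2 and 2.21 with vehicle, 2.77, 2.76 and 2.86 with E2 and 2.35, 2.85 and 2.81 with E3, above vehicle on all 6 arrays. It rose by 0.77 ± 0.15 after E2 (adjusted p = 0.0017) and 0.64 ± 0.15 after E3 (0.0052). Col5a2 was at 0.59, 0.39 and 0.38, 0.37, -0.25 and -0.04 and -0.53, -0.12 and -0.42 in the same order, below vehicle on all 6. It fell by 0.42 ± 0.15 after E2 (adjusted p = 0.045) and by 0.81 ± 0.15 after E3 (0.0012). The E2 call of Col5a2 was lost on the median scale (-0.25, adjusted p = 0.24), with normexp background correction (-0.39, 0.052) and when any 1 of 11 arrays was left out (adjusted p between 0.052 and 0.19). Col5a2 and Col3a1 are neighbours on chromosome 1, with probes 28 kb apart on mm7. Col12a1, a fibril-associated collagen, was at -4.82, -4.87 and -4.62 with vehicle, -4.85, -4.91 and -5.3 with E2 and -6.36, -5.53 and -5.35 with E3 at 2 h. It fell by 0.98 ± 0.27 after E3 (adjusted p = 0.011), a call lost after quantile normalization (-0.54, 0.099) and with normexp background correction (-0.31, 0.16). With E2 it gave -0.25 ± 0.27 (0.50). Col14a1, the other fibril-associated collagen, gave -0.16 and 0.04.

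The small leucine-rich proteoglycans lumican and biglycan fell at 2 h and decorin was not called. Lum was at 5.79, 5.8 and 6.02 with vehicle, 5.34, 5.11 and 5.19 with E2 and 5.44, 5 and 5.28 with E3 at 2 h, every array below vehicle. It fell by 0.66 ± 0.14 after E2 (adjusted p = 0.0029) and by 0.63 ± 0.14 after E3 (0.0036, and 0.053 on the median scale). Bgn was at -0.6, -0.35 and 0.01 with vehicle, -0.56, -1.13 and -1.09 with E2 and -0.94, -0.93 and -0.85 with E3, where E2 replicate 1 lay within the vehicle range. It fell by 0.62 ± 0.17 with E2 (0.012) and by 0.59 ± 0.17 with E3 (0.014). Both Bgn calls were lost on the median scale (adjusted p = 0.066 and 0.12) and without vehicle replicate 3, the E2 call also without E2 2 h replicate 2 or 3, with values from -0.53 to -0.43. Dcn, whose protein binds type I collagen, was at 7.57, 7.77 and 7.97 with vehicle and at 7.62, 7.3 and 7.47 and 7.83, 7.6 and 7.82 with E2 and E3 at 2 h. Its arrays overlapped, and the differences were -0.30 ± 0.15 (adjusted p = 0.12) and -0.02 ± 0.15 (0.93).

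Of the 7 matricellular genes only Spp1 and Postn were called at 2 h by their brightest probes. Spp1, which encodes the secreted phosphoprotein osteopontin, was at 0.85, 1.27 and 0.61 with vehicle, -0.15, -1.47 and -0.95 with E2 and -0.98, -1.82 and -1.72 with E3 at 2 h. All 6 arrays of 2 h were below all vehicle arrays. It fell by 1.77 ± 0.64 after E2, or 3.41-fold (adjusted p = 0.046), and by 2.42 ± 0.64 after E3, or 5.35-fold (0.0098). The E2 call was lost on the median scale (adjusted p = 0.066) and when any 1 of 9 arrays was left out (adjusted p between 0.051 and 0.15). At 24 h its values were -0.55, -1.08 and 0.67 with E2 and -1.03, 1.15 and 1.78 with E3, so that E3 spanned from below to above vehicle. Neither difference of Spp1 from vehicle was called at 24 h (-1.23 with E2 and -0.28 with E3). Macrophages are a known source of osteopontin, and 4 of the 5 macrophage markers were higher with E3 at 24 h, as given above. Whether they bear on the Spp1 values was not tested. Postn, periostin, fell by 0.59 ± 0.18 after E3 (adjusted p = 0.023), a call lost on the median scale (0.097) and without E3 2 h replicate 1 or 2 or vehicle replicate 1 or 2 (0.051 to 0.068). Thbs1 gave 0.63 ± 0.24 and 0.58 ± 0.24 at 2 h, with every array above vehicle and no call (adjusted p = 0.054 and 0.074). Sparc, Tnc, Thbs2 and Crtac1 were not called, with Crtac1 at 1.59 ± 0.77 with E2 (0.12).

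The promoters of Spp1, which had the largest fall at 2 h, and of Crtac1, which had the largest rise at 24 h, are printed for that reason. They are the 250 bases before a RefSeq start, at chr5:104434861-104435110, plus strand, and at chr19:42431789-42432038, minus strand. Capitals mark TATAAA, the CCAAT box and the GC box GGGCGG on either strand.
Spp1: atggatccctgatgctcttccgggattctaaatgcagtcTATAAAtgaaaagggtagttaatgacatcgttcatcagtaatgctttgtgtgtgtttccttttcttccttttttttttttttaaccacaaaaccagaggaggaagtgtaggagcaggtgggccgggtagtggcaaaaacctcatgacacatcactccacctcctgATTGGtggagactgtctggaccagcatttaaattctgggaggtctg
Crtac1: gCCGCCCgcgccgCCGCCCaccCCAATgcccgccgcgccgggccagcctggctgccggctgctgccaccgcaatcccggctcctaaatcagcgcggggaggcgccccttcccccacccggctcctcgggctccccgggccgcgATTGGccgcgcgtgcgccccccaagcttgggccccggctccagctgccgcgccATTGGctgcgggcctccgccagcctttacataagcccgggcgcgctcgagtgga
Spp1 shows TATAAA 211 and a CCAAT box 46 bases before the start, and Crtac1 CCAAT boxes at 228, 107 and 54 bases besides GC boxes. CCAAT occurs in 37.4% and TATAAA in 13.6% of all windows. No member window held the full palindromic oestrogen response element, which 0.07% of all windows hold, and 1 of 30, that of Postn, held the shorter AGGTCA, against 16.3% of all.

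At 24 h all 5 fibrillar collagens and Sparc rose and Thbs1 fell after either oestrogen. All 3 type VI chains and 3 of 7 processing genes rose after E2, against 2 of 3 and 1 of 7 after E3, and Thbs2 fell after E2. With E2, 25 of the 36 genes changed, 20 up and 5 down, where 43.4% of all genes were called, 21.1% higher and 22.3% lower. With E3, 13 changed, 12 up and 1 down, against 20.4% of all genes, 9.70% higher and 10.7% lower. The median difference from vehicle over the 36 genes was 0.82 with E2 and 0.55 with E3, beside -0.02 and 0 over all genes tested. The arrays did not overlap with vehicle in 26 genes with E2 and 17 with E3, against 56.1% and 36.1% of all genes. Scaled to the array median the splits were 24 up and 3 down and 17 up and 1 down, and the median of all genes moved to 0.20 and 0.14. At 24 h 12 genes rose and 1 fell with both oestrogens, 12 were called after E2 alone and none after E3 alone, in comparisons that share the vehicle arrays. When the E3 comparison was fitted on its own 6 arrays, none of the 13 genes was called, and only 1 of all genes tested was.

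**Figure D2:**
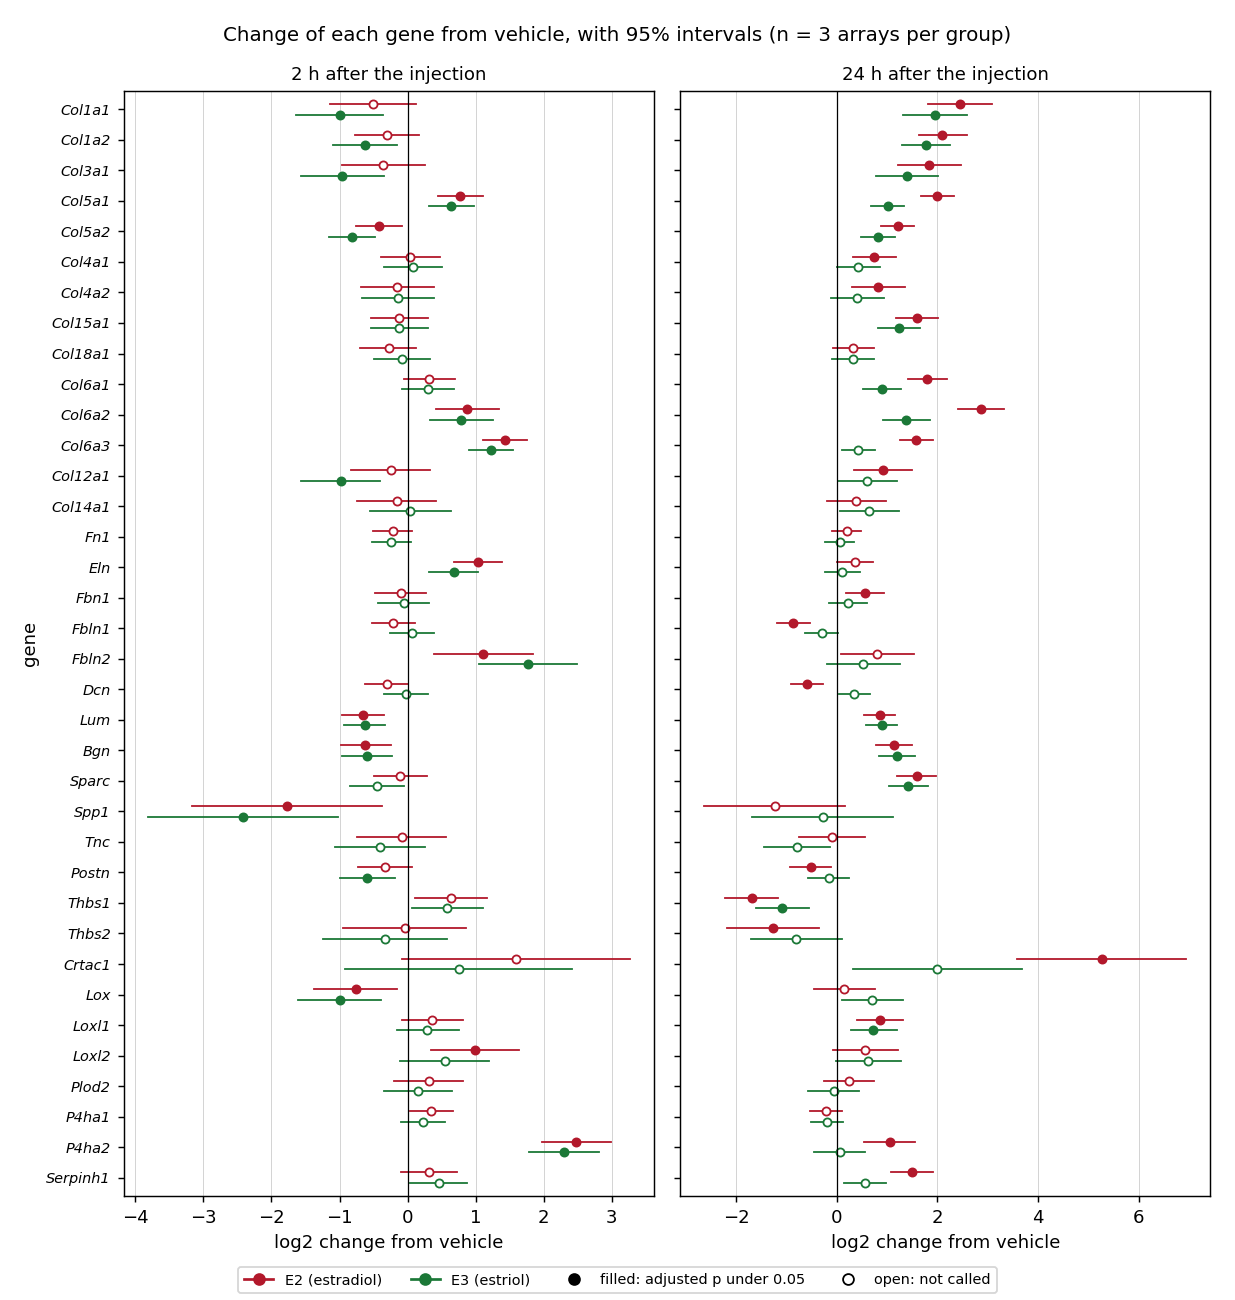
Change of each of the 36 genes from vehicle (log2, x axis) at 2 h and at 24 h, with 95% intervals, for E2 (red) and E3 (green), 3 arrays per group. Filled points passed an adjusted p of 0.05. At 24 h all 5 fibrillar collagens are filled on the right for both oestrogens, and 25 genes are filled for E2 against 13 for E3.

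All 5 fibrillar collagen genes rose at 24 h with both oestrogens. Col1a1, with its brightest probe at chr11:95060800-95060859 on mm7, reached 7.09, 6.97 and 6.54 after E2 and 6.12, 6.38 and 6.6 after E3, clear of the vehicle arrays, a rise of 2.45 ± 0.29 (5.46-fold, adjusted p = 7.4e-05) and 1.95 ± 0.29 (3.86-fold, 0.0034). Col1a2 reached 7.81, 7.81 and 7.69 with E2 and 7.31, 7.51 and 7.5 with E3, rises of 2.10 ± 0.22 (3.2e-05) and 1.77 ± 0.22 (0.0023). Col3a1 reached 6.53, 6.62 and 6.65 with E2 and 6.15, 6.01 and 6.31 with E3, rises of 1.84 ± 0.28 (3.6e-04) and 1.40 ± 0.28 (0.0088, and 0.062 after quantile normalization). The mean of the Col3a1 probes gave 0.66 with E3 (0.090). In all 3 the E2 arrays and the E3 arrays of 24 h lay above every vehicle array. Col5a1 reached 4.05, 4.15 and 3.89 and 3.1, 2.83 and 3.19, rises of 2.00 ± 0.15 (6.3e-06) and 1.01 ± 0.15 (0.0034). The other Col5a1 probe rose by 1.45 with E2 (3.8e-04) and gave 0.64 with E3 (0.062). Col5a2 reached 1.57, 1.66 and 1.75 and 1.26, 1.31 and 1.26, rises of 1.21 ± 0.15 (1.1e-04) and 0.82 ± 0.15 (0.0068). The E2 arrays were above the E3 arrays without overlap in Col5a1, Col5a2, Col1a2 and Col3a1, and overlapped with them in Col1a1.

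From 2 h to 24 h the type I and III chains rose, at their brightest probes, by nearly equal amounts with E2 and E3. Col1a1 rose by 2.96 ± 0.29 after E2 and 2.95 ± 0.29 after E3, and Col1a2 by 2.41 ± 0.22 and 2.40 ± 0.22. Col3a1 rose by 2.20 ± 0.28 and 2.36 ± 0.28, and Col5a2 by 1.63 ± 0.15 with each. Their differences between E2 and E3 were 0.01 for Col1a1 (95% interval -0.89 to 0.91), 0.01 for Col1a2 (-0.66 to 0.68), -0.16 for Col3a1 (-1.04 to 0.71) and 0.00 for Col5a2 (-0.47 to 0.47). At the other probes of the type I and III chains the rise was larger with E2, by 0.35 to 1.51. None of these differences was called (adjusted p between 0.11 and 0.77). Col5a1 stood apart among the brightest probes of the fibrillar collagens, with a rise of 1.23 ± 0.15 after E2 (adjusted p = 3.4e-05) and 0.37 ± 0.15 after E3 (0.060). Over the 36 genes, 26 changed between the times with E2, 20 up and 6 down, where 52.3% of all genes were called, 30.6% higher and 21.7% lower. With E3, 20 changed, 14 up and 6 down, against 49.7% of all genes, 29.9% higher and 19.8% lower. The arrays of the times did not overlap in 28 genes with E2 and 25 with E3, against 62.2% and 54.2% of all genes. Within slide 3, which held 2 arrays of E2 at 2 h and 1 of E2 at 24 h, Col1a1 was 3.44 higher and P4ha2 differed by -1.41 at 24 h, with no test. With slide as a fixed block, 20 of the 36 genes were called between the times with E2 and none with E3. No slide held E3 arrays of both times, so the E3 changes could not be read within a slide. Of all genes tested, 7780 were called with E2 and 134 with E3 in that fit.

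Several genes that rose with both oestrogens at 24 h have windows, Col5a1, Col6a2, Col15a1, Bgn and Sparc among them. The windows of Col1a2, Col3a1 and Col6a1 are printed as examples, chosen from such genes without a rule. They lie at chr6:4505368-4505617, plus strand, at chr1:45311288-45311537, plus strand, and at chr10:76726045-76726294, minus strand. Capitals mark, on either strand, the same motifs as above and the AP-1 motif TGANTCA.
Col1a2: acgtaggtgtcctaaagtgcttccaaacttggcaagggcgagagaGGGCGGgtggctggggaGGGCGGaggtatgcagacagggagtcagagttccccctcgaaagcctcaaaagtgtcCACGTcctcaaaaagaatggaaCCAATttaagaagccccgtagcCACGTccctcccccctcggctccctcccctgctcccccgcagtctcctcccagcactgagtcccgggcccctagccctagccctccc
Col3a1: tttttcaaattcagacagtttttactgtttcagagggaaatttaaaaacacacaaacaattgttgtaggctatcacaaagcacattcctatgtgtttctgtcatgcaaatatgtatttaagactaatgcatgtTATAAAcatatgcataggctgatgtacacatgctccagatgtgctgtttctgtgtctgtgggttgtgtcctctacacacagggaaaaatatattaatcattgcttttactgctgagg
Col6a1: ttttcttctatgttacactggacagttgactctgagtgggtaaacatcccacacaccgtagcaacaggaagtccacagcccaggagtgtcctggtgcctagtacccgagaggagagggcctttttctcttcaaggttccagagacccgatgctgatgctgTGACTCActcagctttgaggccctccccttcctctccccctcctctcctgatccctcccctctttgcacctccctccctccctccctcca
Col1a2 holds CCAAT 109 bases before its start, ACGTG at 131 and 87 and the GC box at 205 and 188. The Col3a1 window holds TATAAA alone, 117 bases before the start. Col6a1 is the only member whose window holds TGANTCA, 90 bases before the start, a motif found in 7.81% of all windows.

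At 24 h all 3 type VI chains were above vehicle after E2. From 2 h to 24 h Col6a1 and Col6a2 had risen by 1.48 ± 0.18 and 1.99 ± 0.21 after E2, while Col6a3 differed by 0.15 ± 0.15 (adjusted p = 0.41). Col6a2 reached 3.76, 4.01 and 3.58 after E2 and 2.01, 2.51 and 2.39 after E3, against 0.65 to 1.36 with vehicle, a rise of 2.86 ± 0.21 after E2 (7.27-fold, adjusted p = 5.6e-06) and 1.38 ± 0.21 after E3 (2.61-fold, 0.0038). The other Col6a2 probe, well above background on all 15 arrays, gave 1.02 after E2 (0.041) and 0.30 after E3 (0.59). Its E2 minus E3 at 24 h was 0.73 (0.25). Col6a1 was at 2.95, 3.01 and 3.41 with vehicle, 3.53, 3.44 and 3.37 and 3.19, 3.5 and 3.58 at 2 h, and 4.92, 5.17 and 4.7 with E2 and 3.73, 4.23 and 4.11 with E3 at 24 h. It rose by 1.8 ± 0.18 with E2 (2.4e-05) and 0.90 ± 0.18 with E3 (0.0077). Col6a3 rose by 1.58 ± 0.15 after E2 (2.0e-05) and gave 0.43 ± 0.15 after E3 (0.057), though all 3 E3 arrays lay above vehicle. The order of the 24 h groups was thus the same in all 3 chains, with E2 above E3 and no overlap.

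Among basement membrane and multiplexin collagens, 3 of 4 rose after E2 at 24 h and 1 after E3. Col15a1, a collagen next to basement membranes, rose by 1.59 ± 0.19 after E2 (adjusted p = 8.4e-05) and 1.23 ± 0.19 after E3 (0.0039). The other Col15a1 probe, well above background on all 15 arrays, rose by 1.03 after E2 (0.002) but gave 0.26 after E3 (0.41). At that probe E2 minus E3 at 24 h was 0.76, which was called (0.033). Col4a1 and Col4a2, the chains of the common type IV collagen network, rose by 0.74 ± 0.20 (0.0090) and 0.83 ± 0.24 (0.016) with E2 and gave 0.43 and 0.41 with E3 (0.14 and 0.25). The Col4a2 call was lost without either of E2 24 h replicates 1 and 2 or vehicle replicates 1 and 2, with adjusted p between 0.054 and 0.071. These 2 genes are transcribed away from each other, with annotated starts 21 bases apart on chromosome 8 of GRCm38.p6, so that their promoter windows overlap by 78 bases. At 2 h they gave 0.04 and -0.15 with E2 and 0.08 and -0.14 with E3. Col18a1 gave 0.33 with each oestrogen at 24 h and was not called (adjusted p = 0.18 and 0.24). Col12a1 rose by 0.92 ± 0.27 after E2 at 24 h (0.015, lost without E2 24 h replicate 3 or vehicle replicate 2, with adjusted p of 0.050 to 0.056) and gave 0.61 ± 0.27 after E3 (0.12), from arrays at -4.05, -3.91 and -3.6 and -3.87, -4.65 and -3.97.

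Lumican and decorin, neighbours on chromosome 10 with probes 55.0 kb apart on mm7, took opposite directions with E2 at 24 h. The Dcn probe lies at chr10:97080086-97080145 and the Lum probe at chr10:97135063-97135122. Lum reached 6.76, 6.84 and 6.56 after E2 and 6.83, 6.56 and 6.89 after E3, above every vehicle array, with rises of 0.85 ± 0.14 (adjusted p = 5.7e-04) and 0.89 ± 0.14 (0.0040, and 0.085 after quantile normalization). Dcn was at 7.19, 7.24 and 7.12 with E2, below every vehicle array, and at 7.85, 8.24 and 8.28 with E3, which overlapped with vehicle. It fell by 0.58 ± 0.15 with E2 (0.0067, and 0.080 on the median scale) and gave 0.35 ± 0.15 with E3 (0.10). Bgn rose by 1.14 ± 0.17 with E2 (2.7e-04) and 1.20 ± 0.17 with E3 (0.0028) on its brightest probe. The mean of the Bgn probes gave 0.42 (0.16) and 0.03 (0.94), so that both calls were lost. By their brightest probes Lum, Bgn and Col5a2 were lower at 2 h and higher at 24 h with both oestrogens.

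Of the glycoproteins and elastic fibre genes, Fbln1 fell and Fbn1 rose after E2 at 24 h and none was called after E3. Fbln1 was at 3.9, 4.46 and 3.98 with vehicle, 3.8, 3.85 and 4.07 and 4.16, 4.23 and 4.15 at 2 h, 3.28, 3.3 and 3.18 with E2 and 3.72, 4.04 and 3.71 with E3 at 24 h. The E2 arrays of 24 h lay below all other arrays of this gene. It fell by 0.86 ± 0.15 after E2 (adjusted p = 7.1e-04) and gave -0.29 ± 0.15 after E3 (0.18). The other Fbln1 probe, well above background on all 15 arrays, gave -0.67 after E2 (0.18) and -0.16 after E3 (0.79). Its E2 minus E3 at 24 h was -0.51 (0.46). Fbn1 rose by 0.56 ± 0.17 after E2 (0.021), a call lost without E2 24 h replicate 2 or 3 or vehicle replicate 3 (0.053 to 0.067). The other Fbn1 probe gave 0.44 after E2 and was not called (0.084). Fn1, fibronectin, gave 0.20 and 0.06 at 24 h. By their brightest probes 6 genes were called in none of the comparisons with vehicle, namely Fn1, Col14a1, Col18a1, P4ha1, Plod2 and Tnc. Another Tnc probe, 24.5 kb towards the 5′ end, was called lower at 2 h, at -1.48 with E2 (0.022) and -1.59 with E3 (0.014). Its values at 24 h are given below.

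Matricellular genes held both the largest rise and the largest falls with E2 at 24 h. Crtac1, with a probe between positions 42177512 and 42178013 of chromosome 19 on mm7, encodes an acidic secreted protein first known from cartilage. Its level was -5.29, -3.86 and -4.33 with vehicle, -2.97, -2.99 and -2.76 with E2 and -4.61, -4.54 and -2.08 with E3 at 2 h. At 24 h it was 1.06, 0.76 and 0.5 after E2, and -3.82, -0.65 and -3.01 after E3. The E2 arrays of 24 h lay far above all others, and E3 replicate 2 stood above the other E3 arrays. It rose by 5.27 ± 0.77 after E2, or 38.5-fold (adjusted p = 2.6e-04), and gave 2.00 ± 0.77 after E3 (0.083). Sparc, a collagen-binding glycoprotein of growing matrix, was at 4.64, 4.59 and 4.47 with vehicle, 4.65, 4.24 and 4.48 and 4.17, 3.89 and 4.29 at 2 h, and 6.27, 6.41 and 5.78 with E2 and 5.88, 5.85 and 6.23 with E3 at 24 h. All 6 arrays of 24 h were above the other 9, with rises of 1.59 ± 0.18 (5.5e-05) and 1.42 ± 0.18 (0.0023).

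Both thrombospondins fell with E2 at 24 h, and Thbs1 also with E3. Thbs1, which activates latent TGF-beta and restrains vessel growth, was at -0.67, -0.7 and -0.64 with vehicle, 0.07, -0.37 and 0.18 and 0.34, -0.16 and -0.46 at 2 h, and -2.31, -2.55 and -2.21 with E2 and -2.06, -1.23 and -1.95 with E3 at 24 h. It was thus above vehicle on all 6 arrays of 2 h and below it on all 6 of 24 h. The fall was 1.69 ± 0.24 after E2 (3.22-fold, adjusted p = 2.2e-04) and 1.08 ± 0.24 after E3 (2.11-fold, 0.012). The 2 other Thbs1 probes gave -1.61 and -1.58 with E2 (0.0095 and 0.0044). With E3 they gave -0.97 and -1.02 and were not called (0.13 and 0.073). Thbs2 was at 0.03, 0.53 and 0.86 with vehicle, 0.62, 0.34 and 0.33 and 0.14, 0.27 and 0.02 at 2 h, and -0.78, -0.62 and -0.99 with E2 and -0.06, -1.58 and 0.65 with E3 at 24 h, where E3 replicate 2 was the lowest of all its arrays. It fell by 1.27 ± 0.42 with E2 (0.027), a call lost without E2 24 h replicate 1 or 3 or vehicle replicate 2 or 3 (0.060 to 0.089), and gave -0.80 ± 0.42 with E3 (0.19). Postn fell by 0.52 ± 0.18 with E2 (0.037, and 0.13 on the median scale), a call lost without E2 24 h replicate 2 or any 1 vehicle array (0.056 to 0.15). Tnc, tenascin C, gave -0.09 and -0.79 and was not called (0.82 and 0.081). Its probe 24.5 kb towards the 5′ end gave -1.66 with E2, which was called (0.011), and -1.27 with E3 (0.072). The further Tnc probe gave -0.28 and -1.05 (0.72 and 0.19).

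**Figure D3:**
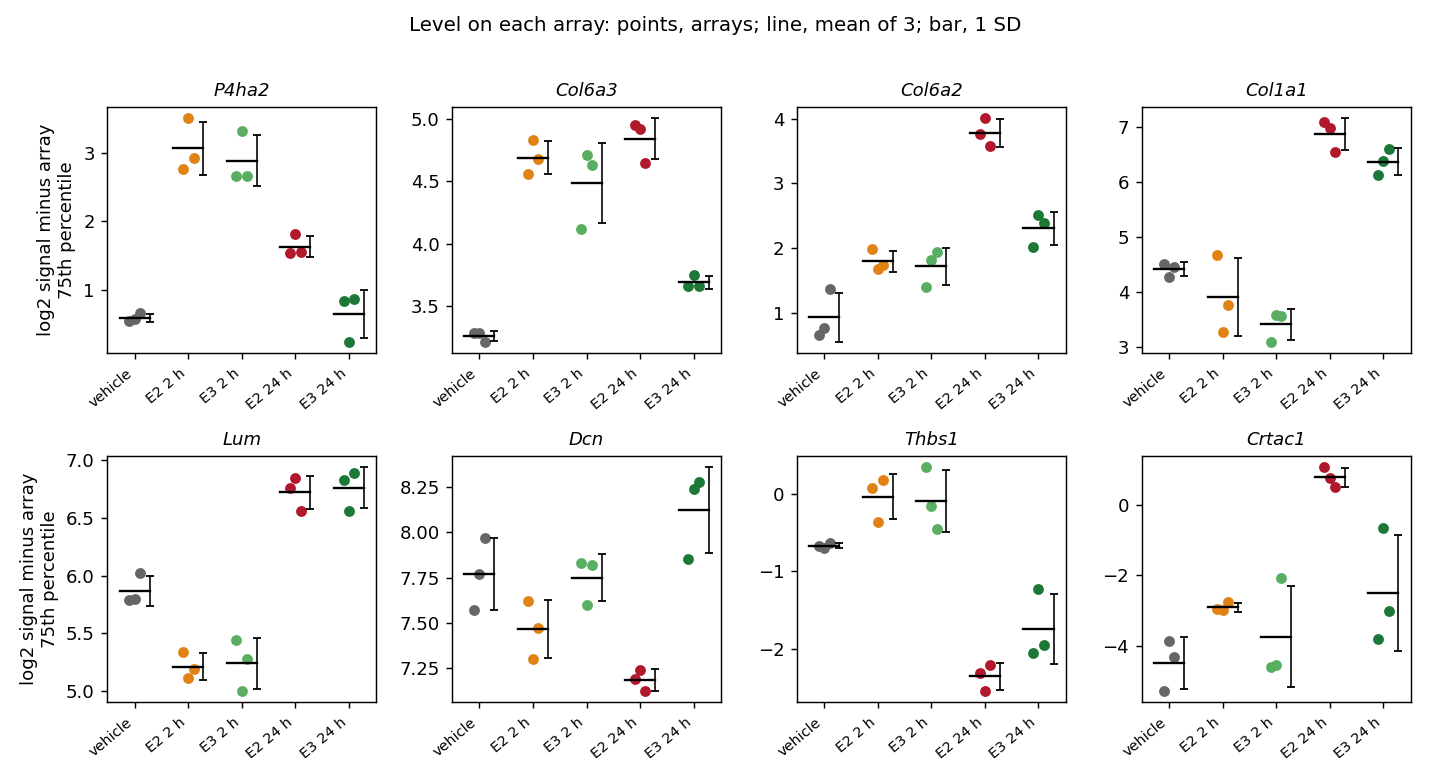
Level of 8 genes on each array (points), with the mean of 3 (line) and 1 SD (bar). The y axis is the log2 signal minus the array's 75th percentile and differs between panels. P4ha2 is highest at 2 h, Col6a2 and Crtac1 with E2 at 24 h, and Dcn is lowest with E2 and highest with E3 at 24 h.

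In the processing group at 24 h, 3 of 7 genes rose with E2 and 1 with E3. Serpinh1, the collagen chaperone Hsp47, was at 5.19, 5.33 and 5.42 with vehicle, 5.58, 5.61 and 5.7 and 5.5, 5.88 and 5.93 at 2 h, and 6.96, 6.91 and 6.54 after E2 and 6.01, 5.42 and 6.18 after E3 at 24 h. The E2 arrays of 24 h were above all others of this gene. It rose by 1.49 ± 0.19 after E2 (2.81-fold, adjusted p = 1.1e-04) and gave 0.56 ± 0.19 after E3 (0.056). Loxl1, which cross-links elastin, rose by 0.86 ± 0.21 with E2 (0.0060) and 0.73 ± 0.21 with E3 (0.031). The E3 call of Loxl1 was lost with no filter on dim probes (0.053), with slide as a random block (0.069) or scan day as a fixed block (0.066), and without E3 24 h replicate 2 or 3 or vehicle replicate 1 or 2 (0.055 to 0.12). Lox, Loxl2, Plod2 and P4ha1 were not called at 24 h, with Lox at 0.15 with E2 and 0.70 with E3 (0.70 and 0.092). The other Loxl2 probe rose by 1.1 with E2 (0.004) and gave 0.57 with E3 (0.13).

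E2 and E3 were compared directly at each time. At 2 h none of the 36 genes differed between the oestrogens, as none of all genes tested did (0% called), and when only the 6 arrays of 2 h were fitted 1 gene of all tested was called and none of the 36. At an unadjusted p under 0.05 there were 3 of the 36 and 750 of all genes. For 28 of the 36 genes the 95% interval excluded a difference of 2-fold, and for 15 it excluded one of 1.5-fold, so the remaining 8 could differ by 2-fold or more. The 3 genes were Col12a1 (0.73, interval 0.15 to 1.31), Col5a2 (0.39, 0.05 to 0.72) and Eln (0.36, 0.00 to 0.72). Arrays of E2 and E3 did not overlap in 7 of the 36 genes at 2 h, against 12.7% of all genes.

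At 24 h 9 of the 36 genes differed between E2 and E3, 7 higher and 2 lower with E2, where 15.7% of all genes were called, 8.95% higher and 6.77% lower. The E2 and E3 arrays did not overlap in 13 genes, against 28.6% of all. The largest difference was in Crtac1, at 3.27 ± 0.77 (interval 1.59 to 4.94, adjusted p = 0.015). All 3 type VI chains were higher with E2, Col6a2 by 1.48 ± 0.21 (0.0010), Col6a3 by 1.15 ± 0.15 (5.2e-04) and Col6a1 by 0.90 ± 0.18 (0.0057). Col5a1 was higher by 0.99 ± 0.15 (0.0015), P4ha2 by 0.99 ± 0.23 (0.015) and Serpinh1 by 0.93 ± 0.19 (0.0072). Dcn was 1.92-fold lower with E2 (-0.94 ± 0.15, 0.0015) and Fbln1 1.48-fold lower (-0.57 ± 0.15, 0.023). The calls of Crtac1 (on leaving out replicate 1 of E2 or replicate 3 of E3, 0.052 to 0.053), P4ha2 (without E2 24 h replicate 2, 0.058) and Fbln1 (without E3 24 h replicate 2 or any 1 of the E2 24 h arrays, 0.054 to 0.064) were lost when 1 array was left out. With the mean of a gene's probes P4ha2 gave 0.33 (0.39) and Fbln1 -0.54 (0.14). None of the 9 was called with slide as a fixed block, and 0 of all genes tested were. In that fit E2 and E3 arrays of the same time never share a slide. When only the 6 arrays of 24 h were fitted, 3 of the 9 were called, beside 362 of all genes tested.

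At their brightest probes the type I and III chains gave no call between the oestrogens at 24 h. E2 minus E3 was 0.50 for Col1a1 (interval -0.14 to 1.14), 0.33 for Col1a2 (-0.14 to 0.81) and 0.44 for Col3a1 (-0.18 to 1.06). For Lum it was -0.04 (-0.35 to 0.26), for Bgn -0.06 and for Sparc 0.17 (-0.22 to 0.56). Of the 27 genes that were not called, 19 had an interval within 2-fold, so the other 8 could differ by 2-fold or more. Through other probes type I chains were called higher with E2. A Col1a1 probe 1 kb towards the 5′ end gave 1.19 (adjusted p = 0.025), and the distant Col1a2 probe gave 0.89 (0.04). The most distant Col1a1 probe gave 1.09 (0.076), and the other Col3a1 probes gave 0.71 and 0.63 (0.19 and 0.28), with no call.

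**Figure D4:**
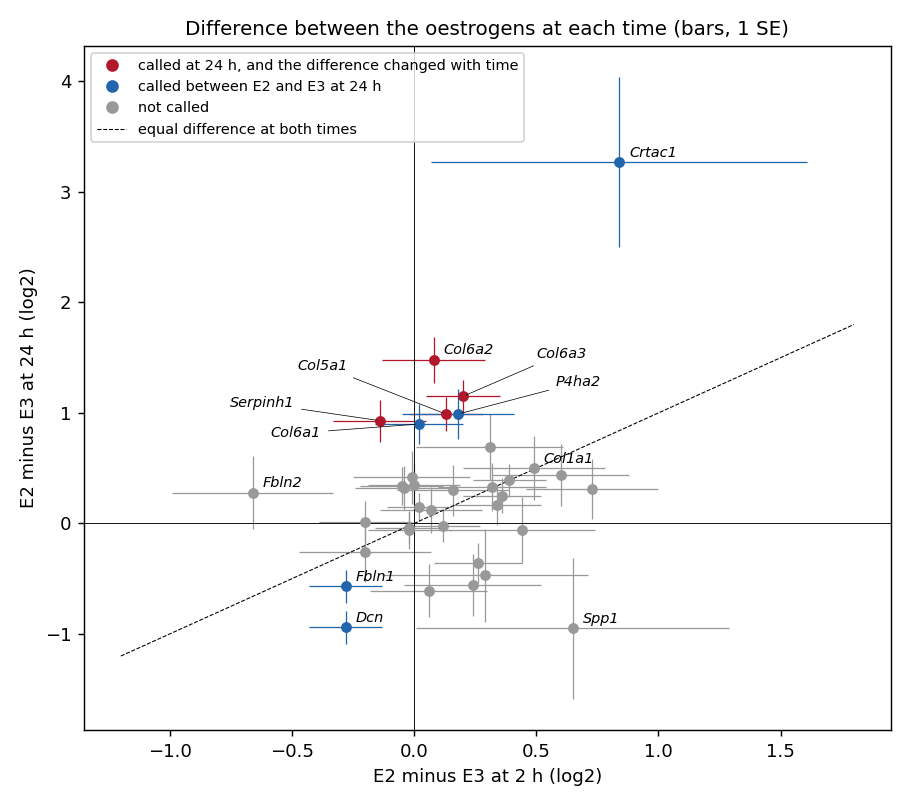
E2 minus E3 for each of the 36 genes at 2 h (x axis, log2) and at 24 h (y axis, log2), with bars of 1 SE. The dashed line marks an equal difference at both times, and red points (Col6a2, Col6a3, Col5a1 and Serpinh1) passed the test that the difference changed with time. Those 4 lie near 0 at 2 h and between 0.93 and 1.48 at 24 h.

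The difference between E2 and E3 changed from 2 h to 24 h in 4 of the 36 genes, where 6.22% of all genes were called, 3.85% higher and 2.37% lower. Col6a2 gave 1.40 ± 0.30 (adjusted p = 0.022), Serpinh1 1.07 ± 0.27 (0.038), Col6a3 0.95 ± 0.21 (0.024) and Col5a1 0.86 ± 0.22 (0.037). The mean of the Col5a1 probes gave 0.81 (0.069). Other probes of Col6a2, Col6a3 and Col5a1 gave 0.76 to 1.91 with no call (0.089 to 0.28). Col6a1 gave 0.88 ± 0.25 (0.056) and Dcn -0.66 ± 0.21 (0.081). Each of the 4 calls was lost when certain single arrays were left out. For Col6a2 these were E2 24 h replicate 2, E2 2 h replicates 2 and 3 and E3 2 h replicate 3, with values of 1.28 to 1.37 (0.050 to 0.060). Where the call was lost, Col6a3 gave 0.83 to 0.94 (0.052 to 0.066), Col5a1 0.77 to 0.89 (0.057 to 0.093) and Serpinh1 0.99 to 1.11 (0.050 to 0.095). These arrays were E2 24 h replicates 1 and 2, E2 2 h replicates 1 and 3 and E3 2 h replicates 2 and 3 for all 3 genes, with E2 2 h replicate 2 and vehicle replicate 2 for Col5a1 and Serpinh1 and vehicle replicate 1 for Serpinh1.

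Several genes had a second probe far from the brightest one, and the probes of a gene did not always move alike. The limit of 5000 bases used here was chosen after the values were seen. On mm7, 9 genes had another probe more than 5000 bases towards the 5′ end that was well above background on all 15 arrays. At 2 h 7 of these 9 probes gave a lower change than the brightest probe of the same gene with E2, and 7 with E3. The Dcn probe 36.9 kb towards the 5′ end was at -1.15, -0.70 and -0.99 with vehicle, at -5.16, -5.22 and -5.55 at 2 h after E2 and at -5.08, -4.57 and -4.75 after E3. It was thus lower on every array of 2 h, and it fell by 4.36 ± 0.21 after E2 (adjusted p = 2.5e-07) and by 3.85 ± 0.21 after E3 (4.9e-07), while the brightest Dcn probe gave -0.30 and -0.02. At 24 h it was at -2.38, -2.94 and -2.81 with E2 and at -1.42, -1.99 and -1.56 with E3.

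Distant probes of Col1a2 and Col3a1 also fell further at 2 h than the brightest ones. For Col1a2 the probe 26.8 kb towards the 5′ end was at -3.90, -3.57 and -4.07 with vehicle, -6.48, -6.15 and -6.51 at 2 h after E2 and -6.51, -6.24 and -5.99 after E3. It fell by 2.53 ± 0.24 and 2.40 ± 0.24 (adjusted p = 1.5e-05 and 2.1e-05), against -0.31 and -0.63 at the brightest probe. At 24 h this probe gave 0.37 with E2 and -0.52 with E3 (0.28 and 0.17), where the brightest probe had risen. For Col3a1 the probe 27.2 kb towards the 5′ end fell by 1.51 ± 0.30 with E2 and 1.87 ± 0.30 with E3 at 2 h (0.0024 and 5.7e-04) and rose by 1.72 and 1.02 at 24 h. The distant probes of Col5a1 and Col6a3 rose at 2 h with both oestrogens, by 0.89 and 0.83 and by 1.15 and 1.19. Whether a probe lies in an exon or an intron was not established, since no annotation of mm7 was used here, and the reason for the differences was not tested.

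**Figure D5:**
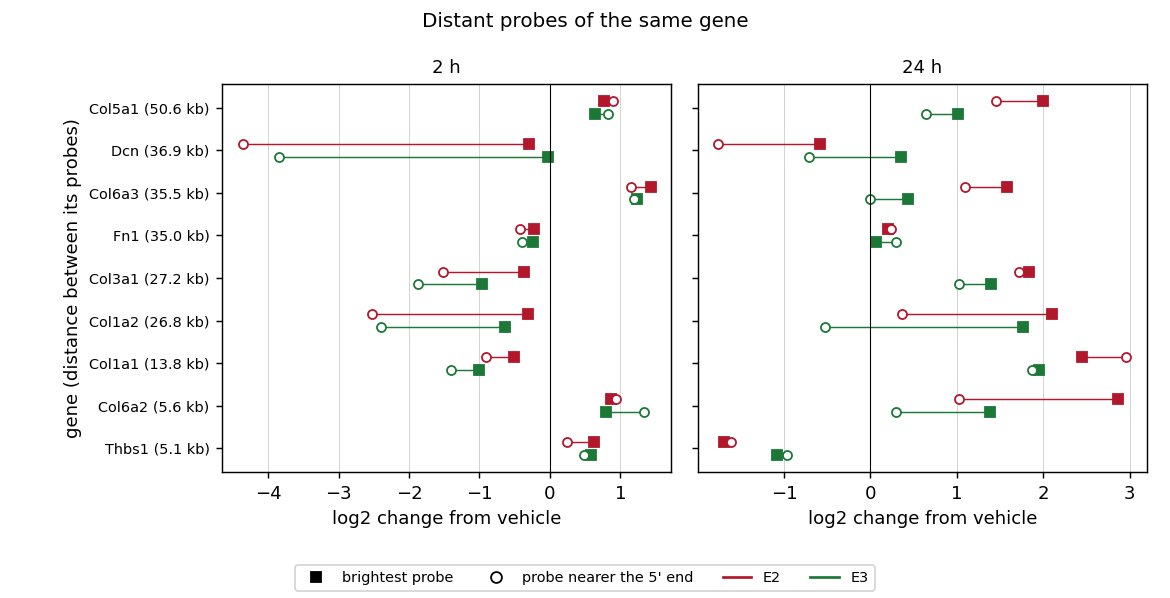
Change from vehicle (log2, x axis) at 2 h and 24 h for 9 genes with a probe more than 5000 bases towards the 5′ end (open circles), joined to the brightest probe (squares), for E2 (red) and E3 (green). The distance in kb is given beside each gene. Dcn, Col1a2 and Col3a1 have open circles far to the left of the squares at 2 h.

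Other matrix genes were read from 6 lists of relatives of the 36, of which 89 genes could be tested. Their counts stand beside the shares of all genes called, which at 24 h were 21.1% higher and 22.3% lower after E2, 9.70% and 10.7% after E3, and 8.95% and 6.77% between E2 and E3. At 2 h they were 15.5% higher and 23.1% lower after E2 and 16.6% and 23.6% after E3. Of 22 further collagen processing enzymes and chaperones, 13 rose and 1 fell after E2 at 24 h (median 0.75), and 6 rose and none fell after E3 (median 0.35). The largest rises after E2 were in P4ha3, another catalytic subunit of the prolyl hydroxylase (2.08 ± 0.52), and Pcolce, which speeds removal of the procollagen C-propeptide (1.85 ± 0.29), and P3h2 fell by 0.85 ± 0.17. Between E2 and E3 at 24 h 7 of the 22 were higher and 1 lower, with Fkbp10, a collagen chaperone, at 1.14 ± 0.17 (adjusted p = 0.0014) and P3h1 at 1.09 ± 0.20 (0.0037). At 2 h 6 rose and 2 fell after E2 and 5 rose and 1 fell after E3, with P4ha3 at 2.56 and 2.29 and Colgalt2 at 2.00 and 1.89.

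Of 19 other collagens, 5 rose and 6 fell after E2 at 24 h, and 3 rose and 3 fell after E3 (medians -0.35 and -0.11). Col2a1 and Col11a1 led the rises with E2 (2.04 ± 0.36 and 1.64 ± 0.23), and Col23a1 and Col13a1, both collagens with a membrane-spanning segment, the falls (-2.35 ± 0.16 and -1.48 ± 0.44). At 2 h Col8a2 rose by 2.96 ± 0.20 after E2 and 2.74 ± 0.20 after E3. Among 14 further matricellular genes, 4 rose and 1 fell at 2 h with each oestrogen, led by Ccn1 (4.59 and 4.69) and Ccn5 (3.71 and 3.27). At 24 h 2 rose and 6 fell after E2, with Comp (-1.57 ± 0.30) and Ccn2 (-1.50 ± 0.19) the lowest, and none rose and 1 fell after E3 (medians -0.59 and 0.02).

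Of 13 laminins and other basement membrane genes, none rose and 1 fell after E2 at 24 h, and none was called after E3 (medians 0.18 and 0.11). At 2 h 2 rose and 3 fell after E2 and 2 rose and 2 fell after E3, with Lamb1 at 1.39 ± 0.20 and 1.52 ± 0.20. Of 14 elastic fibre and microfibril genes, 5 rose and 2 fell after E2 at 24 h, led by Mfap2 (1.23 ± 0.24) and Fbn2 (1.14 ± 0.26) and by Ltbp1 (-0.95 ± 0.16) and Efemp1 (-0.72 ± 0.23), and 2 rose and none fell after E3 (medians 0.11 and 0.29). Of 7 further small proteoglycans, only Prelp was called in the comparisons with vehicle, at -0.60 and -0.58 at 2 h and -1.34 ± 0.17 with E2 at 24 h.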

How the data were processed

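The authors scanned one-colour Agilent arrays (500 ng of total RNA, Cy3) and deposited 1 scanner file per sample, made with Feature Extraction 9.5.3.1 per the file headers. The intensity used, the deposited processed signal, is background-corrected per the file headers, and the deposited series table held equal values. Here log2 intensity was set relative to the 75th percentile of each array, control probes left out. Of several probes the one with the highest mean over 15 arrays stood for the gene, and it entered the test when all 3 arrays of at least 1 group called it well above background. In R 4.3.3, limma 3.58.1 (lmFit, eBayes) was fitted with 1 mean per group on all 15 arrays, with Benjamini-Hochberg adjustment over 20308 genes, and the code was tested on simulated data. The number of arrays limits the precision. Intervals are 95% intervals of that fit.

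Gene names came from RefSeq through accessions or symbols. A probe that the file names by an older symbol of Loxl2 maps to Loxl3 and was left out, which left 66 probes of the 36 genes. Values on every array are given for the 4 largest rises and falls in each comparison with vehicle, among called genes whose arrays did not overlap, and for every member called between E2 and E3, and added for a few others after their values were seen. The members and lists were chosen with earlier results of these data known. The labels give no pairing by replicate number, and the main fit used none. Same-numbered arrays had deviations that correlated between -0.22 and 0.21. With no differently numbered arrays beside them, these values cannot show whether the samples were paired. Alternatives changed the scaling (quantile, array median), background (normexp, offset 50), filter, probe choice, arrays fitted, variance model, blocks (replicate number, slide, scan day) and threshold, and left out each array in turn.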

Additional observations from a re-analysis of the deposited data

Results flagged for a closer look

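In 4 genes the difference between E2 and E3 changed from 2 h to 24 h by a test of that change in the limma fit. Col6a2, a type VI collagen chain, gave 1.40 ± 0.30 (SE, adjusted p = 0.022), from a difference of 0.08 at 2 h and 1.48 at 24 h. Col6a3, of the same collagen, gave 0.95 ± 0.21 (0.024), from 0.20 and 1.15. Serpinh1, the collagen chaperone Hsp47, gave 1.07 ± 0.27 (0.038), from -0.14 and 0.93. Col5a1, of type V collagen, gave 0.86 ± 0.22 (0.037), from 0.13 and 0.99. In all 4 the E2 arrays of 24 h lay above the E3 arrays of 24 h, and the arrays of 2 h overlapped. Other probes had the same sign but no call. They gave 1.12 for Col6a2 (0.28), 1.15 and 1.91 for Col6a3 (0.13 and 0.089) and 0.76 for Col5a1 (0.21).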

How the results depend on the processing

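Under every fit that left out 1 array, 6 of 12 and 11 of 16 calls held at 2 h with E2 and E3, 20 of 25 and 12 of 13 at 24 h, 6 of 9 between E2 and E3 at 24 h and 0 of 4 changes of that difference. The counts called without 1 array were 7 to 14, 12 to 19, 21 to 26 and 12 to 17 for E2 and E3 at 2 h and at 24 h, 0 to 0 and 7 to 12 between E2 and E3, 24 to 27 and 16 to 23 between the times, and 0 to 8 for the change of the difference. At an adjusted p under 0.01 the counts were 6 and 8 at 2 h and 0 for the change of the difference. Fitted on the arrays of the comparison alone, they were 0 for E3 at 24 h, 3 between E2 and E3 at 24 h and 1 for the change of the difference. E2 and E3 arrays of the same time shared no slide, and E3 arrays of 2 h and 24 h shared none. With slide as a fixed block the counts were 0 between E2 and E3 at 24 h and 0 between the times with E3. For the change of the difference the count was also 0. Over all genes tested that fit called 0, 134 and 0 in the same order. The count of 4 for the change of the difference became 1 after quantile normalization, 1 with no filter and 2 with slide as a random block. It became 1 with a fixed block for scan day, and 2 on scan day 1 alone, an alternative chosen after seeing the data. Over all genes these fits called 1045, 574, 701, 189 and 610 in the same order. With the replicate number as a block the count for that change was 2, beside 887 of all genes. Those at 2 h were 9 and 15, beside 7524 and 7855. The causes were not tested.

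All 36 brightest probes were well above background on every array. Some changes took the other sign through another probe. The Bgn, Col3a1 and P4ha2 probes concerned were well above background on 8 of 15 arrays. Bgn gave -0.30 and -1.14 at 24 h with E2 and E3, Col1a2 -0.52 and Col3a1 -0.44 with E3 at 24 h, and Col6a2 -1.04 (mean of probes -0.22) from 2 h to 24 h with E3. P4ha2 gave -1.43 (mean of probes -0.19) with E2 at 24 h and -0.33 for E2 against E3. Dcn gave -0.18 from 2 h to 24 h with E3 after quantile normalization.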
